A study of Mus musculus with 3 samples.

Results

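B cell I is a class of B lymphocytes that the authors named in their single-cell survey of the mouse ovary. Naive-type is the description used here, and a subset of metformin cells described further on departs from it in some genes. The members of B cell I are the 449 cells that carry that name in the deposited cell annotation, out of 14353 cells in 20 named classes. Ovaries came from C57BL/6 females in 3 conditions, and the labels name no allele or transgene: aged mice that drank metformin, an oral glucose-lowering drug, at 350 mg/kg/day from the age of 14 months and for 6 months (181 B cell I cells), aged mice left untreated (123 cells), and young mice of 3 months (145 cells). The age of the untreated aged mice is not stated for their cells. Of 5 mice per condition, the left ovaries of 3 were combined and digested (30 min, 37 °C), filtered through a 40 µm strainer and freed of red cells. The cells were then marked with lipid-anchored DNA tags, passed through a flow sorter whose gate is not stated, and run in 3 mixed 10x Genomics 3′ v3 pools, A, B and C.

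A naive B cell carries IgM and IgD on its surface, built from a heavy chain and a kappa or lambda light chain, and signals through the Cd79a and Cd79b proteins of the receptor complex. It circulates between blood and lymphoid tissue, guided by chemokine receptors such as Ccr7 and Cxcr5, and the factor Klf2 keeps many lymphocytes quiescent and recirculating. In mice most B cells use kappa, and a small share uses 1 of the lambda constant genes.

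Each condition was 1 suspension of pooled ovaries, so it counts as 1 sample. The 3 pools repeat that sample, and whether they hold different mice is not stated. No difference was tested, and no p-value is given. Treatment or age cannot be told apart from the suspension. All intervals given are exact 95% intervals, and they cover counting error alone. Between pools of the same condition the interval left out 0 for 9.09% to 15.2% of genes, and 2.55% to 6.2% of genes differed 2-fold or more, so intervals understate the spread between repeats. B cell I held 393384 UMIs (sequenced RNA molecules, counted once each) in metformin, 255200 in aged and 262562 in young, with medians of 1768, 1760 and 1651 UMIs per cell. Of the B cell I cells, 5 had a cell barcode that was also seen in another pool.

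The name fits the cells' RNA as that of B cells. The marker shares that follow describe the authors' clustering of these cells and do not test it. Cd79a, the signalling chain of the B cell receptor, had a UMI in 98.4% of B cell I cells (95% interval 96.8% to 99.4%), against 0.502% of fibroblasts, a class that should lack it. Fibroblasts were the deeper cells, with a median of 4043 UMIs against 1719 in B cell I. Ms4a1, which encodes the surface protein CD20, had a UMI in 78.4% of B cell I cells and in 0.137% of fibroblasts. Ighd, the heavy chain of IgD, was seen in 67.7% of B cell I cells against 0.182% of fibroblasts, and Pax5, the factor that holds cells in the B lineage, in 37.9% against 0.0912%. In the class B cell II, Cd79a had a UMI in 93.3% of cells and Ms4a1 in 33.3%, but Ighd and Pax5 each in 1.67%. Fcer2a, from the list of the naive follicular state, had a UMI in 29.8% of B cell I cells. The 20 genes that led B cell I over the next highest class, which describe the authors' clustering and test nothing, included Pax5 (271 CPM, UMIs scaled to a common class total, against 2.17 CPM in B cell II), Ighd, the complement receptor gene Cr2, the IgE receptor gene Fcer2a and the IgM receptor gene Fcmr.

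Ighm, the heavy chain of IgM, had a UMI in 96.1% of metformin, 95.9% of aged and 93.1% of young B cell I cells, and UMIs of the switched heavy chains outnumbered those of Ighm and Ighd together in 3, 2 and 6 cells. Cells with 3 or more switched UMIs numbered 18 of 181 in metformin (9.94%), 2 of 123 in aged (1.63%) and 5 of 145 in young (3.45%). Ighm is weaker evidence than Ighd, because 30.6% of fibroblasts also had an Ighm UMI. Jchain, the joining chain of secreted antibody, had a UMI in 15.1% of B cell I cells and in 14.4% of fibroblasts, a share read as background, while 98.3% of cells of the other B class, B cell II, had one. The 10 T cell markers summed to 33.0 CPM in metformin, 66.6 CPM in aged and 45.7 CPM in young, against 10372, 10643 and 10519 CPM for the 10 B cell markers. The stromal fibroblast markers summed to 170 CPM in metformin, 862 CPM in aged and 175 CPM in young, and 1, 4 and 2 cells held 3 or more of these UMIs. These markers in B cell I touch some results, which are also given without such cells.

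B cell I made up 4.82% of metformin cells (interval 4.16% to 5.56%), 4.13% of aged cells (3.44% to 4.91%) and 1.90% of young cells (1.61% to 2.24%). By pool the share was 4.05%, 4.75% and 5.59% in metformin, 2.45%, 4.57% and 6.14% in aged, and 1.92%, 2.12% and 1.68% in young, for pools A, B and C. Every aged pool lay above every young pool, while the metformin pools lay inside the range of the aged pools. The ratio of aged to young was 2.17 (1.69 to 2.78), with 1.27 in pool A and 3.66 in pool C. The ratio of metformin to aged was 1.17 (0.924 to 1.48). Taken among immune cells only, the ratio of metformin to aged was 0.832 (0.658 to 1.06), the other side of 1, and aged to young was 2.34 (1.82 to 2.99). Among the 5 lymphocyte classes B cell I held 13.1% in metformin, 16.5% in aged and 16.1% in young, and the interval of the ratio of aged to young held 1 (ratio 1.03, 0.802 to 1.32). The sort and the yield of other cell types can set all of these shares, and their part was not tested. As the aged ovaries were 1 suspension, more B cells and fewer other cells cannot be told apart.

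**Figure D1:**
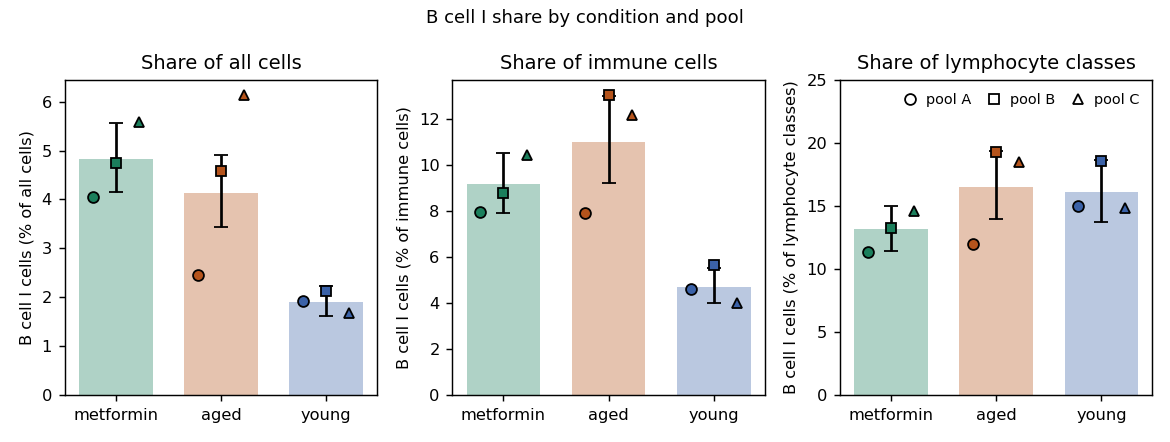
Share of B cell I cells among all cells, among immune cells and among the lymphocyte classes (percent, vertical axes) in metformin, aged and young. Bars give the share over all pools with its exact 95% counting interval, and symbols give pools A, B and C. Aged lay above young in the first 2 panels, at 4.13% against 1.90% of all cells, and close to it in the third, at 16.5% against 16.1%.

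Aged against young asks how these cells differ with age. For each gene, UMIs were summed over the B cell I cells of a condition and scaled to CPM. Log2 ratios have 1 UMI added to each sum, their intervals do not, and a gene needed 30 UMIs or more in the 2 conditions together. Of 2404 such genes, 60 were 2-fold or more higher in aged (2.5%) and 50 lower (2.08%), in all 4.58%. Between pools of 1 condition, with fewer cells, 4.29% to 6.2% of genes differed by as much in aged and young, so a 2-fold difference of a single gene is not by itself beyond the spread of the pools. CPM of all aged pools lay above all young pools for 6.91% of genes and below for 6.74%. The median log2 ratio over all genes was 0.00039.

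Crip1, Vim, Itgb1, Snrnp25, H2-Q7 and Eps15 were the genes that the naming rule placed highest in aged cells. The rule ranks genes by the end of the interval nearest 0. Crip1, a small LIM-domain protein, had 2703, 1831 and 2241 CPM in aged pools A, B and C, against 920, 684 and 1046 CPM in young. All aged pools lay above all young pools, with a log2 ratio of 1.33 (1.11 to 1.57). Vim, the intermediate filament vimentin, had 867, 818 and 928 CPM in aged against 465, 490 and 206 CPM in young (log2 ratio 1.09, 0.75 to 1.44), and these pools did not overlap either. Leaving out every cell with 3 or more UMIs on markers of other classes (41 metformin, 40 aged and 22 young cells, most of them for Apoe or Plac8 alone), the ratios came to 0.48 for Crip1 and 0.49 for Vim, and with Apoe and Plac8 not counted (2, 6 and 2 cells left out) to 1.41 and 1.08. Itgb1, the integrin beta-1 chain, had 34 UMIs in aged and 7 in young (2.17, 1.12 to 3.74), but in pool A the log2 ratio was only 0.23. Snrnp25, a protein of the minor spliceosome, had 49 UMIs in aged and 13 in young (1.88, 1.05 to 2.96). H2-Q7, a class Ib MHC gene of a family with near-identical copies among which reads can be split, had 107 UMIs in aged and 45 in young (1.27, 0.78 to 1.83). Eps15, an endocytic adaptor, had 34 and 11 (1.59, 0.65 to 2.80). Without pool A the ratios were 3.71 for Itgb1 and 0.96 for Eps15.

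Ctse, the endosomal protease cathepsin E, led the 6 genes that the rule placed lowest in aged cells. It had 3 UMIs in aged, in 3 cells, and 34 in young, in 31 cells, a log2 ratio of -3.09 (-5.81 to -1.79, and -2.49 without pool A). Vps37b, of the endosomal sorting machinery, had 15 UMIs in aged and 66 in young (-2.03, -3.01 to -1.27). Man2b1, a lysosomal mannosidase, had 9 in aged and 32 in young (-1.68, -3.04 to -0.69). Dmxl1, which takes part in acidifying vesicles, had 41 and 109 (-1.35, -1.92 to -0.84), the kinase Plk2 had 16 and 51 (-1.57, -2.54 to -0.80) and Tut4, which adds uridine to RNA ends, 51 and 111 (-1.07, -1.59 to -0.59). For these 6 genes and the 6 above, the sign was shared by all 3 pools, which the rule for naming them required.

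Genes of the naive follicular state leaned lower in aged cells, each by less than 2-fold. Of the 13 genes of that list with enough UMIs, 11 had a ratio below 0 and 2 above, with a median of -0.39, while 49.9% of all genes lay below 0. None passed 2-fold in either direction. With cells thinned to 1000 UMIs the same 13 genes had 8 below 0 and a median of -0.10. Ighd had 646, 594 and 630 CPM in aged, against 858, 1062 and 913 CPM in young (log2 ratio -0.61, -0.91 to -0.32). The aged pools all lay below the young pools. Ccr7, the receptor that draws lymphocytes into lymphoid tissue, had 527, 701 and 747 CPM in aged against 1054, 919 and 884 CPM in young (-0.50, -0.79 to -0.22), again with no overlap. Fcer2a, the low-affinity IgE receptor CD23, had 170, 156 and 192 CPM in aged and 362, 337 and 191 CPM in young, so it overlapped through young pool C (-0.82, -1.40 to -0.29). Ly6d, a surface protein of B lineage cells, was at a like level, 2445 CPM in aged against 2514 CPM in young (-0.04, -0.20 to 0.12). Pools did not overlap for 3 of the 13 genes (Ighd, Ccr7 and Cxcr5), all lower in aged, against 6.74% of all genes.

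Ighd kept its order at equal depth. With each cell thinned to 1000 UMIs, 48.3% of 118 aged cells had an Ighd UMI, against 62.5% of 144 young cells (61.8% and 72.4% before thinning). For Fcer2a the shares were 16.9% in aged and 26.4% in young (26% and 38.6% before thinning). For both genes the counting intervals of aged and young overlapped at equal depth.

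The B cell receptor complex split by gene. Ighm was higher in aged, at 2853 CPM against 2129 CPM in young (log2 ratio 0.42, 0.26 to 0.58), and so was Cd79b, at 1799 CPM against 1383 CPM (0.38, 0.18 to 0.58). Cd79a was slightly lower in aged, at 2363 CPM against 2666 CPM (-0.17, -0.33 to -0.01). Cr2, which lowers the threshold for activation by complement-coated antigen, had 11 UMIs in aged and 26 in young (-1.13, -2.37 to -0.13). It was the single gene of the 11 in this list past 2-fold, where 4.58% of all genes were. Of the 18 B lineage transcription factors, 12 lay below 0 and 6 above, with a median of -0.15 and none past 2-fold, where 49.9% of all genes lay below 0. As a mean over cells, 9 of the 18 lay below 0. Mef2c, a factor that acts downstream of the receptor, had 1343, 1101 and 1174 CPM in aged pools and 1808, 2114 and 2107 CPM in young pools (-0.75, -0.97 to -0.55), with no overlap. Foxp1 was lower in aged too, at 639 CPM against 884 CPM (-0.47, -0.77 to -0.17), while Ebf1 (1387 and 1531 CPM) and Pax5 (247 and 324 CPM) had intervals that held 0. Bcl11a, chosen after its values were seen, had 137 CPM in aged and 274 CPM in young (-0.98, -1.63 to -0.40, and -0.32 thinned to 1000 UMIs per cell).

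**Figure D2:**
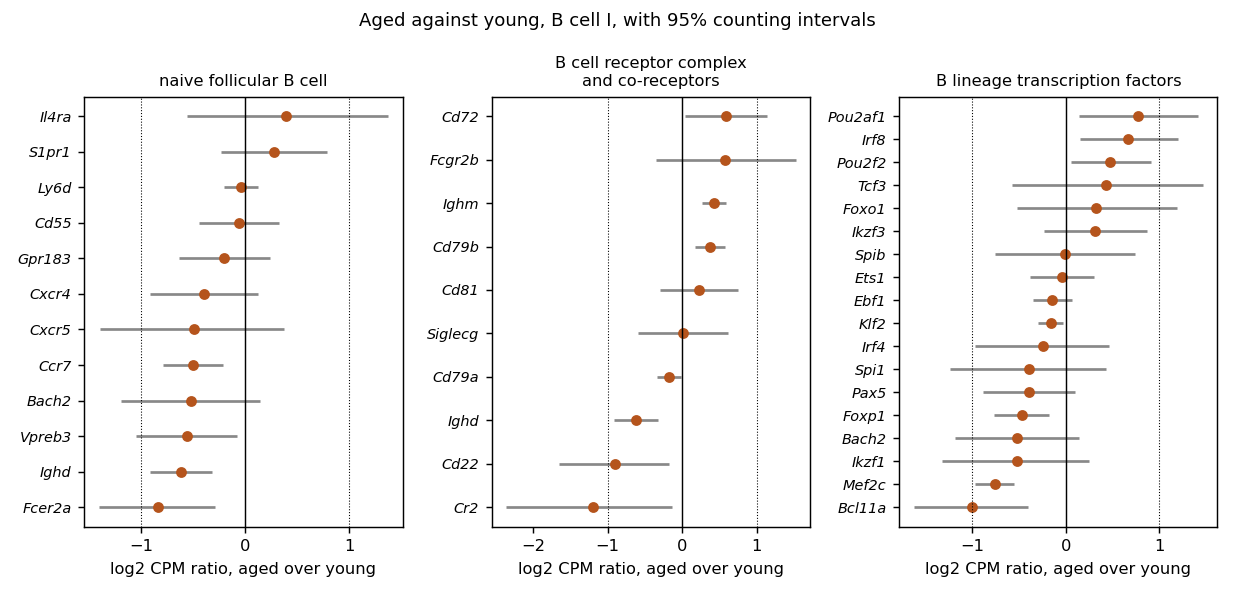
Log2 CPM ratio of aged over young (horizontal axis, no UMI added) for the genes plotted from 3 lists, each with at least 30 UMIs. Points give the ratio, lines its exact 95% counting interval, and dotted lines a 2-fold difference. In the left panel 10 of the 12 genes plotted lie below 0, with Fcer2a and Ighd at the bottom.

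Some genes tied to B-1 cells, an innate-like B cell lineage, were higher in aged cells, but the genes that define that lineage were hardly seen. Of the 12 genes of that list, 3 had enough UMIs, all 3 were above 0, where 50.1% of all genes were, and 2 were 2-fold or more higher, where 2.5% of all genes were. S100a6, a calcium-binding protein, had 340, 273 and 299 CPM in aged pools against 134, 91.9 and 29.5 CPM in young pools (log2 ratio 1.66, 1.03 to 2.43), although its UMIs lay in 14 of 123 aged and 10 of 145 young cells. Ahnak, a large scaffold protein, had 63 UMIs in aged and 34 in young (0.91, 0.31 to 1.58), with the opposite sign in pool A. The third is Vim. Fibroblasts express Vim in particular, and 14 of 222 Vim UMIs and 0 of 76 S100a6 UMIs of aged cells lay in the 4 cells with stromal markers. Without stromal-marked cells of either condition the ratios were 1.06 for Vim and 1.73 for S100a6.

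Mzb1, a chaperone of IgM secretion placed in the marginal zone and plasma cell lists, had 527, 643 and 715 CPM in aged and 393, 327 and 398 CPM in young (0.79, 0.43 to 1.18), with no overlap of pools. The lists themselves had few measured genes, 3 of 10 for the marginal zone (median -0.01) and 7 of 14 for plasma cells (median 0.12). Apoe, the lipid carrier that the age-associated B cell list holds, had 839 CPM in aged and 480 CPM in young (0.80, 0.48 to 1.13). Macrophages and fibroblasts also make Apoe, and 85.0% of fibroblasts had an Apoe UMI against 40.3% of B cell I cells, and the part of free RNA in this level was not tested. Tbx21 and Itgax, the factor and the integrin that define age-associated B cells, had too few UMIs for a ratio. Zbtb20 of the memory list had 380 CPM in aged and 217 CPM in young (0.80, 0.32 to 1.31), in a list with a median of 0.04.

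Genes of antigen presentation on MHC class II stood close in aged and young. Cd74, the invariant chain, had 11383 CPM in aged and 11605 CPM in young (log2 ratio -0.03, -0.10 to 0.05), and the 11 genes of the list had a median of 0.09 with none past 2-fold. Of the 12 MHC class I genes, 10 were above 0 in aged over young, with a median of 0.21, where 50.1% of all genes were above 0. H2-K1 had 1548 CPM in aged and 1337 CPM in young (0.21, 0.00 to 0.42), and H2-Q7 was the 1 gene of the list past 2-fold, where 4.58% of all genes were. Immediate early genes had a median of -0.07, type I interferon genes of 0.05, nuclear genes of oxidative phosphorylation of 0.18 and mitochondrially encoded genes of 0.12. Among cytokines, Ccl3 had 3 UMIs in aged and 40 in young, but 38 of the 40 lay in 1 young cell.

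Metformin against aged asks how these cells differ with the drug. This comparison uses the same aged cells as the one above, so the 2 are not independent. Of 2912 genes, 47 were 2-fold or more higher in metformin (1.61%) and 70 lower (2.4%), in all 4.02%, within the 2.55% to 6.2% seen between pools of 1 condition. The median log2 ratio was -0.015.

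Genes of the immediate early response were lower in metformin than in aged cells, in all 15 of 19 that had enough UMIs. These genes, such as the AP-1 factors Fos and Jun, switch on within minutes of a stimulus, which includes enzymatic dissociation of tissue. Their median log2 ratio was -0.73, and 51.9% of all genes lay below 0. Of the 15, 6 (Jun, Fos, Fosb, Atf3, Egr1 and Ier2) were 2-fold or more lower, against 2.4% of all genes, and for 10 the metformin pools all lay below the aged pools, against 6.94% of all genes. Without the top cell of each gene, 14 of the 15 lay below 0 and 2 were 2-fold or more lower. Thinned to 1000 UMIs per cell, 14 lay below 0 and 4 were 2-fold or more lower, with a median of -0.45. Egr1 had the opposite sign in pool A. Jun had 152, 185 and 142 CPM in metformin pools A, B and C, 476, 994 and 512 CPM in aged pools, and 1374, 786 and 265 CPM in young pools. Metformin lay below both other conditions in every pool, with a log2 ratio to aged of -2.13 (-2.59 to -1.72). Fos had 742, 800 and 544 CPM in metformin, 1564, 1744 and 1387 CPM in aged and 2129, 1675 and 943 CPM in young (metformin over aged -1.20, -1.43 to -0.98). Fosb had 31 UMIs in metformin and 55 in aged (-1.43, -2.14 to -0.79), with 41.9% and 32.7% of them in 1 cell. The young pools ranged widely for both Jun and Fos, with pool C lowest.

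Single cells carry part of these counts. The top aged cell for Jun held 30.9% of the aged Jun UMIs, the top aged cell for Fos 26.2% of the Fos UMIs, and the 4 aged cells with stromal markers held 68 of 178 Jun and 121 of 401 Fos UMIs. Without cells with 3 or more stromal UMIs the log2 ratios of metformin to aged were -1.72 for Jun and -0.93 for Fos, and without the top cell of each gene -1.60 and -0.77. Without all cells carrying 3 or more UMIs on markers of other classes they were -1.52 and -0.81, and that of Fosb was -0.42. Without pool A the ratio of Fosb was -2.13. Thinned to 1000 UMIs per cell, 42.1% of metformin cells had a Fos UMI (34.6% to 49.9%), against 55.1% of aged (45.7% to 64.3%) and 54.9% of young cells (46.4% to 63.2%). Jund, another AP-1 factor, was spread over more cells and had 1141 CPM in metformin and 1897 CPM in aged (-0.73, -0.92 to -0.54), Hspa8, a constitutive heat shock protein, had 813 and 1183 CPM (-0.54, -0.77 to -0.31) and Junb had 610 and 803 CPM (-0.40, -0.67 to -0.12).

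Klf2 lay in many cells and its pools lay close together. It had 1796, 1995 and 1406 CPM in metformin, 3519, 3448 and 3542 CPM in aged and 4278, 4157 and 3050 CPM in young. The metformin pools lay below all others, with a log2 ratio to aged of -1.04 (-1.19 to -0.89), and no cell held more than 3.81% of either sum. Klf6, a related factor, had 248, 343 and 214 CPM in metformin against 663, 770 and 598 CPM in aged (-1.38, -1.75 to -1.02), and Klf4 had 28 UMIs against 52 (-1.49, -2.23 to -0.83). Without all cells carrying markers of other classes the ratio of Klf6 was -0.65, thinned to 1000 UMIs per cell that of Klf4 was -0.73 and without pool B -2.13, and without Iglc1-led cells, a subset described further on, that of Klf2 was -0.70. The same direction for Klf2 was seen outside B cells: its log2 ratio of metformin to aged was -1.0 in T cell/NKT cells, -0.86 in NK cell/ILC, -0.83 in T cell/ILC, -0.72 in Macrophage/Monocyte I and -0.28 in fibroblasts. The median of the immediate early list was -0.27, -0.07, -0.60, -0.26 and -0.12 in those 5 classes, in that order, against -0.73 in B cell I. Whether B cell I differs from them was not tested, and handling of the suspensions cannot be told apart from treatment.

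**Figure D3:**
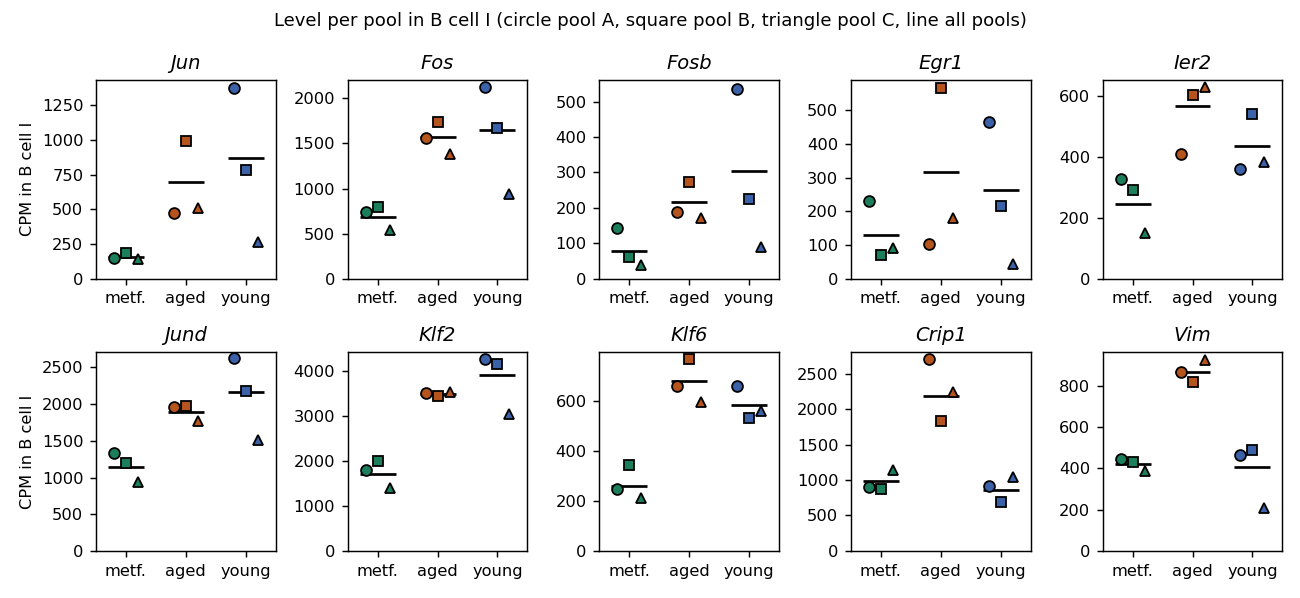
Level in B cell I (CPM, vertical axes starting at 0) of 10 genes in metformin, aged and young. Symbols give pools A, B and C (circle, square, triangle) and black lines the level over all pools. For Jun, Klf2 and Klf6 all metformin pools lie below all aged and all young pools, while for Crip1 and Vim metformin and young lie together below aged.

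Crip1 and Vim, which were higher in aged than in young cells, were lower in metformin than in aged cells. Crip1 had 902, 879 and 1140 CPM in metformin pools against 2703, 1831 and 2241 CPM in aged pools (log2 ratio -1.14, -1.33 to -0.95), and Vim had 447, 431 and 389 CPM against 867, 818 and 928 CPM (-1.05, -1.35 to -0.76). Neither gene's pools overlapped. Without all cells carrying markers of other classes the ratio of Crip1 was -0.60 and that of Plac8, given next, -0.44. S100a6 had 29 UMIs in metformin and 76 in aged (-1.98, -2.68 to -1.38). Because both comparisons share the aged cells, a high aged value lifts the first ratio and lowers the second. Plac8, a small protein of B cells and monocytes and itself on the monocyte marker list, had 126 UMIs in metformin and 197 in aged (-1.26, -1.60 to -0.94), and Rhob, a small GTPase, had 15 and 31 (-1.62, -2.67 to -0.74, and -2.71 without pool A). Cd69, an early activation protein that holds lymphocytes in tissue, had 353 CPM in metformin, 572 CPM in aged and 842 CPM in young (metformin over aged -0.69, -1.04 to -0.35). Nr4a1, a reporter of receptor signalling, had 145 CPM in metformin and 317 CPM in aged (-1.12, -1.65 to -0.62). The activation list as a whole had 9 of 14 genes below 0 and a median of -0.27, where 51.9% of all genes lay below 0. Leaving out a pool gave medians of -0.36 to 0.02, the last without pool C. Over all genes, 1919 had enough UMIs without pool C, against 2912 with it. The part of that pool and that of the genes tested were not told apart.

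Mitochondrially encoded genes had ratios of metformin to aged below 0 for all 13, where 51.9% of all genes were. Their median was -0.24, with none past 2-fold. Metformin pools all lay below aged pools for 1 of the 13 (mt-Atp8), against 6.94% of all genes. Summed over the list, metformin pools A, B and C had 33522, 47319 and 33018 CPM. The aged pools had 43722, 49048 and 38093 CPM, so the pools overlapped. Without Iglc1-led cells 12 of the 13 were below 0, with mt-Nd5 at 0.07 and a median of -0.14, and thinned to 1000 UMIs per cell 12 were below 0, with mt-Atp8 at 0.27. mt-Co3, a cytochrome oxidase subunit, had 7354 CPM in metformin and 8660 CPM in aged (-0.24, -0.32 to -0.16), and mt-Nd2, a subunit of complex I, had 1518 and 2147 CPM (-0.50, -0.67 to -0.33). The deposited mitochondrial percent per cell had a median of 3.76 in metformin, 4.46 in aged and 4.27 in young. The nuclear genes of oxidative phosphorylation had a median of 0.10, 11 of 20 above 0, where 48.1% of all genes were. Genes of energy and mTOR signalling linked to metformin were sparse: 5 of 20 had enough UMIs, with a median of -0.06 and none past 2-fold, and Txnip, the most abundant, had 608 CPM in metformin and 631 CPM in aged (-0.06, -0.35 to 0.24).

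The receptor and presentation genes stood close in metformin and aged. Cd79a had 2351 CPM in metformin and 2363 CPM in aged (-0.01, -0.16 to 0.14), Ighm had 2776 and 2853 CPM (-0.04, -0.18 to 0.10), and Cd74 had 11843 and 11383 CPM (0.06, -0.01 to 0.12). The 11 class II genes had a median of 0.08 with 1 past 2-fold higher, where 1.61% of all genes were. It was Ciita, the master activator of class II genes, at 79 UMIs in metformin and 23 in aged (1.11, 0.47 to 1.89, and under 2-fold at 0.69 thinned and 0.87 without Iglc1-led cells). Cd72, an inhibitory co-receptor, had 591, 606 and 356 CPM in metformin pools against 238, 224 and 352 CPM in aged pools (0.86, 0.48 to 1.29), so pool C showed almost no difference. Its ratio was 0.35 without Iglc1-led cells and 0.37 thinned to 1000 UMIs per cell. Cd22, another inhibitory co-receptor, had 178 and 98.0 CPM (0.82, 0.18 to 1.58, and 0.24 thinned). Ciita, Cd72, Cd22 and mt-Nd2 were chosen after their values were seen. The naive follicular list had 8 of 13 genes below 0 and a median of -0.28, where 51.9% of all genes lay below 0. Leaving out a pool gave medians of -0.15 to -0.03, and leaving out Iglc1-led cells gave 0.17 with 5 of 13 below 0, so its direction changed without those cells. In it, Ighd stood at 745 CPM in metformin and 619 CPM in aged (0.26, -0.02 to 0.56) and Ccr7 at 539 and 678 CPM (-0.33, -0.63 to -0.03, and 0.00 without Iglc1-led cells).

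The genes that the naming rule placed highest in metformin over aged included several found in few cells. Apoc2, an apolipoprotein that activates lipoprotein lipase, had 137 UMIs in metformin and 9 in aged (log2 ratio 3.16, 2.34 to 4.46) and none in young. Cfp, the complement factor properdin, had 37 and 4 (2.30, 1.11 to 4.53). Bhlhe41, a repressor known for B-1 cells, had 60 and 11 (1.72, 0.88 to 2.90), Prxl2a, a redox protein, 55 and 12 (1.48, 0.65 to 2.61), and Tnfaip8, a regulator of cell death, 120 and 30 (1.34, 0.79 to 2.0). Of the 5 genes of the B-1 list with enough UMIs, Bhlhe41 was the 1 above 0. The other 4 lay below 0, where 51.9% of all genes did, and 3 were 2-fold or more lower, where 2.4% were. The median of that list was -1.02, -0.62 thinned to 1000 UMIs per cell and -1.17 without Iglc1-led cells. Apoc2 was found in 21 of 181 metformin cells and Cfp in 18, and thinned to 1000 UMIs per cell their ratios were 1.50 and 1.05, with 0.46 for Bhlhe41, 0.05 for Prxl2a and 0.71 for Tnfaip8. The ratio of Apoc2 was 4.33 without pool A and 2.20 without pool B, and that of Prxl2a 0.76 without pool B. Without pool C the ratios were 2.96 for Cfp and 2.37 for Bhlhe41. Among the immunoglobulin genes, the lambda constant gene Iglc1 had 5077, 4333 and 3486 CPM in metformin pools, 952, 1783 and 747 CPM in aged pools and 475, 582 and 633 CPM in young pools, so each condition stood apart from the others (metformin over aged 1.80, 1.63 to 1.99, and aged over young 1.12, 0.83 to 1.42).

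Whether reads can tell Iglc1 from its relatives matters here, so the last 300 bases of the coding part of the 3 lambda constant genes are shown, on the minus strand of GRCm38 in GENCODE vM21. Capitals in Iglc1 mark bases that differ from Iglc2 or Iglc3 in a pairwise alignment, and capitals in the other two mark bases that differ from Iglc1.
Iglc1 (chr16:19061755-19062054): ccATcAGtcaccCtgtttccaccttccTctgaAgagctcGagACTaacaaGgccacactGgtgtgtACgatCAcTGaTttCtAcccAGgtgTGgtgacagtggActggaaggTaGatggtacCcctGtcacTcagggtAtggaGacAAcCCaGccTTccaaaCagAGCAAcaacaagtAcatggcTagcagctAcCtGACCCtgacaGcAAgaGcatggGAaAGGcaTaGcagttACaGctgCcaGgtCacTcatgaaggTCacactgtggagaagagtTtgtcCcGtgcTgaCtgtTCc
Iglc2 (chr16:19198539-19198838): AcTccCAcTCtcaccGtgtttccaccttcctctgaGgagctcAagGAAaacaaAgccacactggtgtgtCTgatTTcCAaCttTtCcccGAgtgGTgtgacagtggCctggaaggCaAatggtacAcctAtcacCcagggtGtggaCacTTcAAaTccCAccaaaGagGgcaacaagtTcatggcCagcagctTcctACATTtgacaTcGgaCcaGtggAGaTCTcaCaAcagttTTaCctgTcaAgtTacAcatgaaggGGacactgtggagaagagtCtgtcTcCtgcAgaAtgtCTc
Iglc3 (chr16:19065368-19065667): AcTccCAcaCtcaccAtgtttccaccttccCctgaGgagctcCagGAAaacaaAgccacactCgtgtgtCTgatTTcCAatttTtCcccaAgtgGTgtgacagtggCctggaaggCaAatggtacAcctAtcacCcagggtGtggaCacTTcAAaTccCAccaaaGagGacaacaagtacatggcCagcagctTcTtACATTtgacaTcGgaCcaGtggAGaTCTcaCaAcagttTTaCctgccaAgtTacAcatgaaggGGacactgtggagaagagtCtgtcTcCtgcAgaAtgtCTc
Over the whole coding part Iglc1 shares 73.4% of aligned coding bases with Iglc2 and 74.2% with Iglc3, whereas Iglc2 and Iglc3 share 96.2%. In the transcript after the coding part, which 3′ libraries favor, the identities are 53.5%, 52.1% and 89.5%. Iglc1 thus differs from both over its length, while the split of reads between Iglc2 and Iglc3 is uncertain. Iglc2 had 1431 CPM in metformin, 2049 CPM in aged and 1322 CPM in young, and Iglc3 had 694, 1716 and 762 CPM, but 1 aged cell held 52.7% of the aged Iglc3 UMIs and 61 of the 62 aged Ighg3 UMIs were also in 1 cell. Igkc, the kappa constant gene on chromosome 6, had 7875 CPM in metformin, 9169 CPM in aged and 9819 CPM in young.

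Cells were called kappa or lambda against a background in which 65.7% of fibroblasts also held an Igkc UMI. At 90% of light chain UMIs of 1 kind and at least 3 of them, most cells stayed uncalled: 127 of 181 in metformin, 90 of 123 in aged and 103 of 145 in young. Of those called, lambda made up 20 of 53 in metformin (37.7%, 24.8% to 52.1%), 7 of 33 in aged (21.2%, 8.98% to 38.9%) and 4 of 41 in young (9.76%, 2.72% to 23.1%). At 75% the shares were 23.7% of 135, 9.64% of 83 and 4.72% of 106 called cells.

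Taking instead the cells in which Iglc1 made up more than 50% of light chain UMIs, a rule chosen after seeing the data, metformin had 29 of 181 cells (16%, 11% to 22.2%), aged 5 of 123 (4.07%, 1.33% to 9.23%) and young 2 of 145 (1.38%, 0.167% to 4.89%). By pool the counts were 8, 12 and 9 in metformin, 1, 3 and 1 in aged, and 1, 1 and 0 in young. Every metformin pool, at 15.1%, 24.5% and 11.4%, lay above the aged pools at 3.33%, 6.98% and 2%. These 29 cells held 1432 of the 1667 Iglc1 UMIs of metformin B cell I cells. In them Iglc1 ranged from 6 to 151 UMIs with a median of 44, and Igkc from 0 to 19 with a median of 4, against medians of 0 for Iglc1 and 17 for Igkc in the other 152 metformin cells. Over all conditions the 3 cells nearest above the limit had Iglc1 shares of 57.1%, 59.3% and 59.3%, and the 3 nearest below had 50%, 50% and 48.8%. Of all cells, 29 lay between 25% and 75%. In fibroblasts, which should lack the gene, an Iglc1 UMI was seen in 5.99% of metformin, 5.77% of aged and 5.90% of young cells, with median depths of 3636, 3629 and 4615.5 UMIs.

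**Figure D4:**
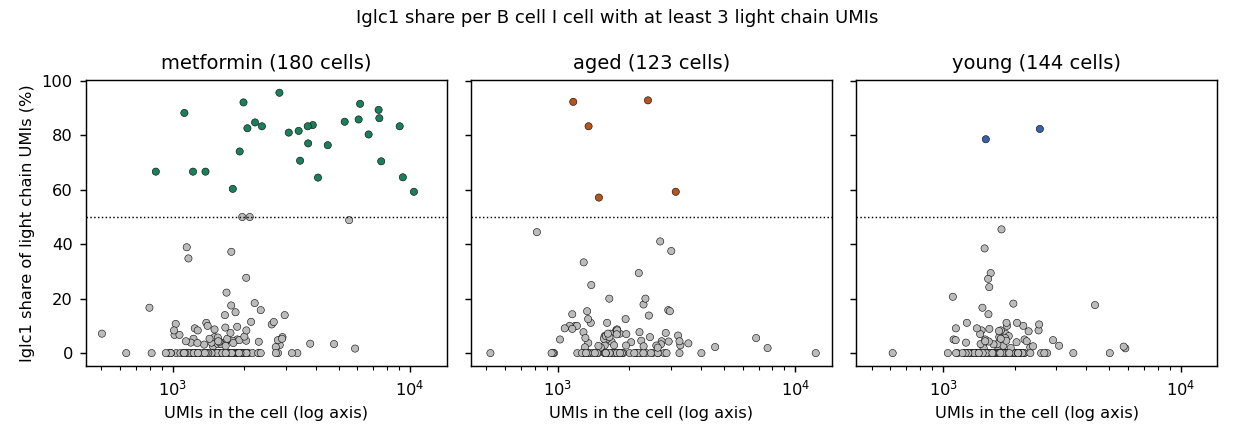
Share of light chain UMIs that are Iglc1 (percent, vertical axis) against the UMIs of the cell (log axis) for B cell I cells with at least 3 light chain UMIs in metformin, aged and young. Colored points lie above 50% (dotted line). There are 29 such cells in metformin, 5 in aged and 2 in young, and the metformin cells reach higher UMI totals.

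The Iglc1-led cells of metformin differed from the other metformin B cells in more than the light chain, as values of cells that were chosen after seeing the data. They held more RNA, with a median of 3708 UMIs against 1668. B cell markers were detected in them, with a Cd79a UMI in 29 of 29, Ms4a1 in 22, Ighm in 27 and Pax5 in 14, but at lower levels. The 10 B cell markers summed to 7650 CPM in Iglc1-led cells and 11638 CPM in the other metformin cells, with Cd79a at 1713 and 2649 CPM and Ms4a1 at 456 and 1069 CPM. Thinned to 1000 UMIs per cell, Cd79a had a UMI in 23 of 28 Iglc1-led against 132 of 143 other cells, and Ms4a1 in 14 of 28 against 94 of 143. Apoc2 had 928 CPM in them and 78.2 CPM in the other 152 cells, Fcer1g, a signalling chain of Fc receptors, 632 and 59.6 CPM, Cfp 256 and 18.6 CPM, Prxl2a 368 and 33.5 CPM, Bhlhe41 368 and 52.2 CPM, and the cyclin gene Ccnd2 352 and 70.8 CPM. Ly6a, a surface protein raised on activated lymphocytes, had 1488 and 473 CPM, and Tnfaip8 600 and 168 CPM. Among these are 5 of the 6 genes that the naming rule placed highest in metformin over aged. Without Iglc1-led cells in any condition, the log2 ratio of metformin to aged was 1.01 for Apoc2, 0.14 for Cfp, 0.32 for Bhlhe41, 0.70 for Tnfaip8, 0.03 for Ly6a and -0.51 for Prxl2a. Of the 47 genes 2-fold or more higher in metformin, 11 had enough UMIs and were 2-fold or more higher without these cells. Leaving the cells out also lowered the genes with enough UMIs from 2912 to 2391. A gene could thus leave the 47 by falling under 2-fold or by having too few UMIs, and these were not told apart.

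Other genes stood lower in the same cells. Fcer2a had 32.0 CPM in Iglc1-led and 231 CPM in the other metformin cells, the egress receptor gene S1pr1 56.0 and 320 CPM, Klf2 656 and 2187 CPM, the surrogate light chain gene Vpreb3 72.0 and 428 CPM, and the factor Ets1 120 and 645 CPM. Ms4a4c had 0 UMIs in Iglc1-led cells and 42 in the others. Ighd stood at 368 and 920 CPM. Switched heavy chains were seen in more of them, with an Ighg2b UMI in 11 of 29 Iglc1-led cells against 3 of 152, and an Ighg3 UMI in 11 of 29 against 6 of 152. Mki67, a marker of cycling cells, had no UMI in either group, and Top2a, another, had a UMI in 3 of 29 Iglc1-led cells against 4 of 152 others (24.0 and 14.9 CPM). Cd5, a B-1 surface protein, had no UMI in either group. Zbtb32, also of the B-1 list, had one in 7 of 29 Iglc1-led cells against 3 of 152 others. Of the age-associated list, Itgax had one in 6 of 29 against 1 of 152 and Tbx21 in 3 of 29 against 3 of 152. Zeb2 stood at 344 and 101 CPM, Fgl2 at 200 and 33.5 CPM and Zfp318 at 176 and 171 CPM. In the memory list Nt5e stood higher, at 224 and 48.4 CPM, and Cd83 lower, at 272 and 466 CPM. The part of depth in the Zbtb32, Itgax and Tbx21 counts was not tested. Klf2 was lower in metformin than in aged also without Iglc1-led cells (log2 ratio -0.70), and so was Jun (-1.93).

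Depth and mixed cells were measured beside this difference. With cells thinned to 1000 UMIs, Apoc2 had a UMI in 9 of 28 Iglc1-led against 5 of 143 other metformin cells, Fcer1g in 10 of 28 against 7 of 143, Vpreb3 in 1 of 28 against 41 of 143 and Ets1 in 3 of 28 against 63 of 143. The 9 macrophage markers summed to 992 CPM in Iglc1-led cells and 592 CPM in the others. Without Apoe, the other 8 summed to 48.0 and 63.3 CPM, with C1qc, Csf1r, Mrc1 and Fcgr1 at 0. The conventional dendritic cell markers summed to 72.0 and 7.45 CPM (9 UMIs and 2), with Xcr1, Clec9a, Flt3 and Cd209a at 0. Itgax, which is also on the age-associated B cell list, held 7 of the 9 UMIs and 1 of the 2. The T cell markers summed to 72.0 and 14.9 CPM, with Cd3e, Cd4 and Cd8a at 0, and the stromal markers to 1 UMI and 66 UMIs. The plasma cell markers summed to 1528 CPM in Iglc1-led cells and 756 CPM in the others, with Tnfrsf17 at 0 and Jchain lower, at 24.0 against 145 CPM. Most of both sums was Mzb1, at 1408 and 555 CPM. The plasmacytoid dendritic cell markers summed to 752 and 346 CPM, with Siglech and Ccr9 at 0. Most of both sums was Tcf4, at 712 and 279 CPM. The part of doublets in the difference was not tested otherwise, and no doublet caller was run.

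**Figure D5:**
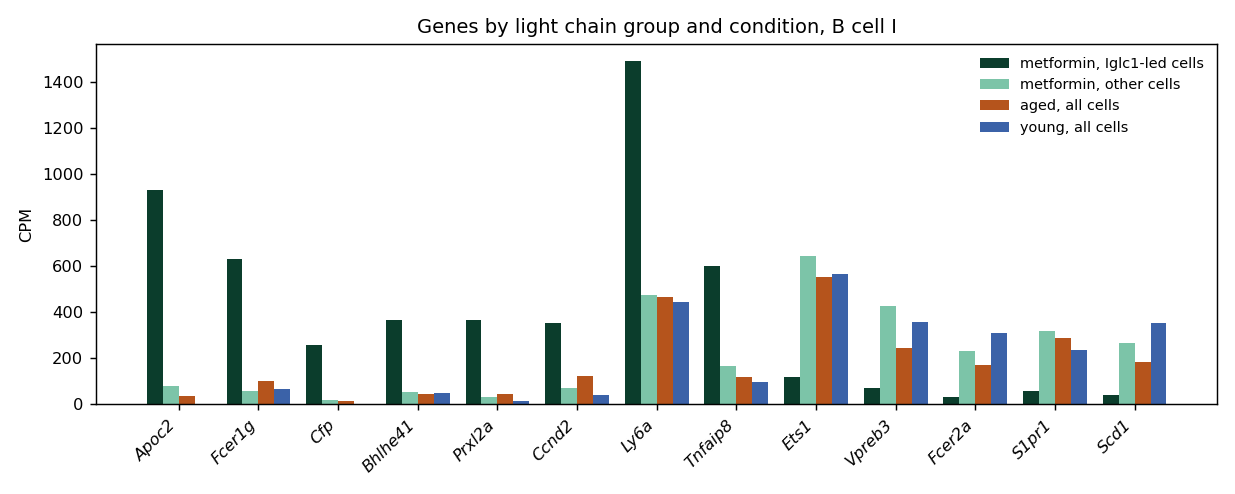
Level (CPM, vertical axis from 0) of 13 genes in Iglc1-led metformin cells (29), other metformin cells (152), all aged cells (123) and all young cells (145). The first 8 genes stand highest in Iglc1-led cells, such as Apoc2 at 928 CPM, and the last 5 lowest in them, such as Fcer2a at 32.0 CPM. Genes were chosen for their difference within metformin.

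In B cell II, the class of antibody-secreting cells by Jchain, 8 of 43 metformin cells were Iglc1-led (18.6%, 8.39% to 33.4%), against 0 of 6 aged and 0 of 11 young cells, counts that allow up to 45.9% and 28.5% by the exact interval. B cell II itself was 1.15% of metformin cells, 0.201% of aged cells and 0.144% of young cells.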

How the data were processed

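The authors deposited raw UMI counts, whole numbers, for 18789 genes in 14353 cells of 3 pools. The submitters' processing notes name Cell Ranger 3.0.2 and the builds GRCm38 and mm10. The deposited annotation holds, among other columns, each cell's pool, tag, condition and cell type name, its UMI total and its mitochondrial UMIs as a percent, per the file headers. Totals and percents recomputed from the counts differed in 0 cells. The lowest cell had 500 UMIs. No cell was left out. The deposited doublet column marks no cell, and no doublet caller was run. Tags of single mice are not named, so edgeR was not run.

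UMIs of B cell I cells were summed per condition and scaled to CPM (numpy 2.4.6, scipy 1.17.1). The code was checked on simulated counts. Shares have Clopper-Pearson intervals and ratios conditional binomial intervals. Genes named have at least 30 UMIs, are among the 10 with the bound of the log2 interval farthest from 0 in a direction, with that bound beyond 0.58, have the same sign in every pool with at least 10 cells of both conditions, and at least 10% of the CPM of their highest class. Mitochondrial, ribosomal and haemoglobin genes, gene models and immunoglobulin variable segments were left out. From each of 27 gene lists, the 4 genes with the most UMIs could be named, plus Cd79a, Ms4a1, Ighd, Pax5, Ighm, Igkc, Cd74, Fcer2a, Cr2, Tbx21, Itgax and Apoe. Iglc1-led cells, the genes compared within them, and Atf3, Egr1, Ier2 and Cxcr5 were chosen after their values were seen. Members, lists and rules were chosen with earlier results of these data known. Sequences and coordinates are from GENCODE vM21 (GRCm38), aligned with biopython 1.88.
Leaving out stromal-marked cells, Iglc1-led cells, or cells with markers other than Apoe and Plac8 were alternatives chosen after seeing the data. Some genes that the rules name or the lists hold are not reported here, though the counts over lists include them.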

Additional observations from a re-analysis of the deposited data

How the results depend on the processing

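Of 406 recomputed values of named genes, 366 moved by less than their counting interval, 39 moved by more with the same sign and 1 changed sign. Of 642 recomputed list medians, 11 changed sign from a reported median at least 0.26 from 0. Of the others, 577 moved by less than 0.26 and 54 by 0.26 or more. Sign changes of medians nearer 0 are not among the 11. Genes past 2-fold for aged against young numbered 110 as reported, 41 with cells thinned to 1000 UMIs, 57 with 5 UMIs added (39 higher, 18 lower), 658 from 10 UMIs (393 and 265), 11 from 100 UMIs (9 and 2), 53 without cells carrying markers of other classes, 92 without the top cell of each gene (36 and 56), and 76 to 83 without a pool. For metformin against aged the 117 genes became 51, 78 (16 higher, 62 lower), 668 (243 and 425), 24 (7 and 17) and 51 under the first 5 of these settings, and 96 to 112 without a pool. Fewer cells or another minimum change the genes tested. The share ratio of aged to young was 1.668 to 2.801 without a pool. That of metformin to aged was 0.8323 among immune cells and 0.9878 to 1.292 without a pool. Lambda shares were 23.7% at a 75% limit in metformin, and without a pool 28.57% to 51.52% in metformin, 16.67% to 25% in aged and 4.167% to 13.33% in young. Among medians at least 0.26 from 0 as reported, those that changed sign for aged against young, without the top cell, were heavy constant genes (0.42 to -0.41) and cytokines (-0.81 to 0.34). Medians nearer 0 also changed sign there, such as activation genes (0.04 to -0.17) and immediate early genes (-0.07 to 0.11). For metformin against aged, the age-associated B cell list had a median of 0.44 as reported. It had -0.45 thinned, -0.19 as a mean over cells, -0.064 without cells carrying other markers, -0.19 without Iglc1-led cells and -0.098 to 0.57 without a pool. Over the 5 genes tested as reported, it had -0.39 without Iglc1-led cells. Activation genes had -0.27 as reported and -0.36 to 0.019 without a pool. Marginal zone genes had 0.36 as reported and -0.14 from 10 UMIs. Without Iglc1-led cells naive follicular genes had 0.17, plasma cell genes -0.13 (0.36 as reported) and Prxl2a -0.51. Where no cells were named as left out, the cause was not tested. Counts per cell limit detection, with 16 of 449 cells under 1000 UMIs. Each pool holds cells of all 3 conditions, so ratios within a pool were made, and they are given as values only. No paired test was run, because the pools were taken as repeats of 1 suspension per condition.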
